A study of Rattus norvegicus with 7 samples.

Results

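Acetylated regions of a rat Schwann cell line that hold peaks of NR2F2, YY1, RXRG, TEAD1 and SREBP1 together are described here. A region is a peak of H3K27ac (histone H3 acetylated at lysine 27) on a nuclear chromosome, and it was taken when it shared at least 1 bp with a peak of each of the 5 factors. This held for 2545 of 99514 H3K27ac peaks, or 2.56%, and they covered 3.88 Mb. All 2545 lie on the placed chromosomes of build rn5. The peak lists themselves chose the regions, so that the regions were selected on the presence of the factors, which is the definition and not a result.

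The 7 samples are untreated S16 cells, probed for NR2F2, YY1, RXRG and TEAD1 by CUT&RUN and for H3K27ac by ChIP-seq, and wild-type sciatic nerve at postnatal day 15, probed for SREBP1 by ChIP-seq, with its input. The design asks whether NR2F receptors sit at enhancers that are active in Schwann cells. S16 is an established line and stands for 1 clone. The SREBP1 peaks come from whole nerve tissue, which the labels assign to Schwann cells although a nerve also holds other cells. Factor, tissue and assay therefore cannot be told apart wherever SREBP1 differs from the other 4 factors. Each target had 1 library, so that no replicate error exists, no test was run, and the 95% intervals cover counting error only and treat regions as independent. The files hold positions without read counts, so that depth is unknown, and marker genes of the labelled cells could not be checked.

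H3K27ac marks active promoters and enhancers. NR2F2 is an orphan nuclear receptor, and RXRG is a retinoid X receptor, a family that pairs with many other nuclear receptors on DNA. YY1 is a zinc finger protein found at promoters and enhancers, and is needed for myelination by Schwann cells. TEAD1 carries the Hippo pathway's coactivators YAP and TAZ to DNA, which Schwann cells need to sort and myelinate axons. SREBP1 is made as a precursor held in the endoplasmic reticulum and, once released, switches on genes of fatty acid and lipid synthesis, from which myelin membrane is built.

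The regions were first set beside H3K27ac peaks that miss 1 of the factors. YY1 was the factor least often missing. Of the 2552 H3K27ac peaks holding the other 4 factors, 2545 held YY1 as well (99.7%, exact binomial interval 99.4 to 99.9%), and 7 did not. YY1 was present in 30.9% of all H3K27ac peaks. All H3K27ac peaks include 48763 (49.0%) that held none of the 5 factors, with a median width of 497 bp. These lower the share of every factor over all peaks. NR2F2 was present in 83.8% (82.5 to 85.1%) of the 3036 peaks with the other 4, against 25.5% of all H3K27ac peaks. TEAD1 was present in 70.6% of 3606, against 19.0% of all. RXRG was present in 59.7% of 4260, against 20.5%, and nerve SREBP1 in 46.0% (44.7 to 47.3%) of 5535, against 15.0%. The class missing SREBP1 alone, with 2990 regions, was thus larger than the class with all 5 factors. Regions missing RXRG alone numbered 1715, those missing TEAD1 alone 1061 and those missing NR2F2 alone 491. The share of each factor's own acetylated regions that held all 5 ran from 8.29% for YY1 to 17.1% for SREBP1.

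The width of the acetylated peak differed between the classes, but was not greatest where all 5 factors were present. The 2545 regions were 1363 bp wide at the median (1347 to 1394 bp, range 241 to 7087 bp). Regions missing RXRG alone were wider, at 1560 bp (1507 to 1613 bp). The medians were 1418 bp (1366 to 1503 bp) in those missing NR2F2 alone and 1520 bp (380 to 2337 bp) in the 7 missing YY1. Both of these intervals overlap that of the regions with all 5. Regions missing TEAD1 alone measured 1142 bp, those missing SREBP1 alone 1015 bp, and all H3K27ac peaks 737 bp. Of the regions, 1561 (61.3%) were among the widest of 4 equal classes of H3K27ac peaks and 10 among the narrowest, whose peaks measure 231 to 367 bp. Among H3K27ac peaks of 1 to 2 kb, a range chosen after the data were seen, the shares with the last factor were 99.8% for YY1, 85.3% for NR2F2, 72.9% for TEAD1, 66.3% for RXRG and 59.6% for SREBP1, in the same order. The SREBP1 share was thus 46.0% at all widths and 59.6% at 1 to 2 kb. Of all H3K27ac peaks of 1 to 2 kb, 50.04% held YY1, 31.1% TEAD1, 29.2% NR2F2, 26.9% RXRG and 26.1% SREBP1. Each factor was thus more frequent among all H3K27ac peaks of this range than at all widths, SREBP1 with 26.1% against 15.0%.

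The rule asks for 1 bp of overlap, and few regions sat at that limit. In 79 of 2545 (3.10%) the shortest overlap with any factor was 50 bp or less, and its median was 222 bp. SREBP1 gave 60 of the cases at 50 bp or less, TEAD1 18, RXRG 3, NR2F2 1 and YY1 0. Just outside the limit, 52 of the 2990 regions missing SREBP1 had an SREBP1 peak within 50 bp of their edge, and 279 (9.33%) within 1 kb. For the 1715 regions missing RXRG, 52 had an RXRG peak within 1 kb, and the median gap to the nearest was 12406 bp.

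Most regions held a single peak of each factor. This was so in 1659 of 2545 (65.2%), while 558 (21.9%) held several peaks of 1 factor and 4 held several of each of the 5. The regions held 14337 factor peaks in all, with a median of 5 and a maximum of 16. RXRG was the factor most often repeated, with 2 or more peaks in 17.1% of regions (15.6 to 18.6%), against 9.65% of all H3K27ac peaks that hold RXRG. NR2F2 followed with 14.6% (13.2 to 16.01%), against 6.97%, and YY1 with 10.9%, against 8.03%. TEAD1 was repeated in 9.63%, against 6.18%, and SREBP1 in 2.79%, against 1.25%. Against regions with 4 factors at like width, the differences did not all have the same sign. Among regions of 1 to 2 kb, RXRG was repeated in 16.9% of those with all 5 factors and in 18.95% of those with RXRG and 3 others. For NR2F2 the shares were 13.8% and 12.5%, for TEAD1 6.48% and 8.28%, for YY1 4.65% and 8.94%, and for SREBP1 3.14% and 1.79%. The regions that held 6 or more peaks measured 1728.5 bp at the median, and those that held 5 measured 1207 bp.

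The peaks themselves were wide in these regions. YY1 peaks had a median of 811 bp (797 to 828 bp), against 463 bp in other H3K27ac peaks and 234 bp outside acetylated chromatin. The medians were 453, 339 and 249 bp for NR2F2, 388, 326 and 222 bp for TEAD1, and 285, 227 and 164 bp for RXRG, in the same order of places. YY1 peaks covered a median of 67.1% of the acetylated region, NR2F2 41.1%, TEAD1 30.3%, SREBP1 29.0% and RXRG 26.5%. The rule itself favours wide peaks, which reach more of the other lists. SREBP1 peaks were all deposited at 485 bp.

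The next question was whether the 5 factors lie on the same bases or side by side. In 964 of the 2545 regions (37.9%, 36.0 to 39.8%) at least 1 base was covered by all 5 lists, and these bases numbered a median of 131.5 in such a region. In 1285 regions (50.5%) the deepest base carried 4 factors, in 292 (11.5%) 3, and in 4 regions 2. Where 4 was the most, leaving out SREBP1 let the others share a base in 64.3% of the 1285 regions, leaving out RXRG in 49.6%, TEAD1 in 15.2%, NR2F2 in 5.76% and YY1 in 0.156%. More than 1 factor can be left out in the same region, so that these shares add to more than the whole. Bases shared by all 5 were found in 54.6% of the narrowest of 4 width classes of these regions and in 24.8% of the widest.

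The tightness of the group was measured as the span of 5 midpoints, taking for each region the peaks, 1 per factor, that gave the fewest bases from first to last. The median span was 514.5 bp (499.5 to 529.0 bp), with the central 50% of regions between 335.5 and 730.5 bp. It was up to 200 bp in 244 regions (9.59%) and above 1000 bp in 310 (12.2%). The span grew with the acetylated peak, from 371.5 bp in the narrowest class to 745.75 bp in the widest, and its median share of the peak's width was 38.6%. The plot of spans by width class shows that the widest class spread far more than the other 3.

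**Figure D1:**
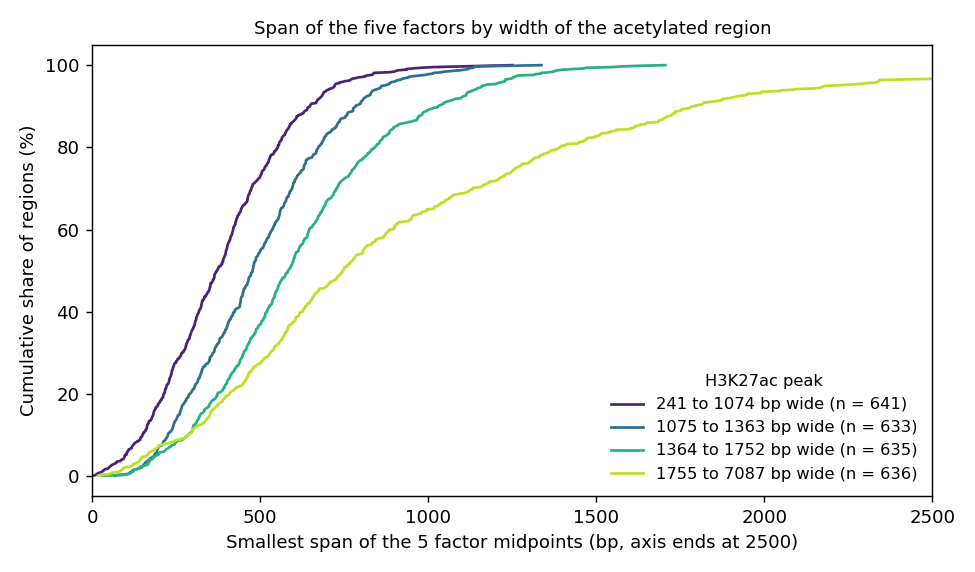
Cumulative share of regions (%, vertical axis) by the smallest span of the 5 factor midpoints (bp, horizontal axis), with 1 line for each of 4 width classes of the 2545 regions. Medians run from 371.5 bp in the narrowest class to 745.75 bp in the widest, where 35.1% of regions span more than 1000 bp.

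Regions at the ends of these ranges show what the numbers look like on DNA. The smallest span, 2.5 bp, was at chromosome 1, 37758094 to 37758500 (407 bp). There the YY1, RXRG and TEAD1 peaks began at the same base, 37758194, and ended at 37758413, 37758411 and 37758412, inside an NR2F2 peak and an SREBP1 peak. Near-identical edges of this kind, with peaks of 3 or more CUT&RUN lists within 10 bp of each other at both ends, were found in 7 of the 2545 regions and in 17 of the 2990 that miss SREBP1. The part of background shared by CUT&RUN libraries in this was not tested. Next came chromosome 4, 209830724 to 209831070, with a span of 11.0 bp, and chromosome 1, 187599077 to 187599917, with 11.5 bp and 485 bases under all 5 lists. Both have such edges too, shared by the 4 CUT&RUN lists on chromosome 4 and by YY1, RXRG and TEAD1 on chromosome 1. All 3 of the smallest spans thus had near-identical edges, as did 4 of the 50 regions with the smallest spans.

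The largest span, 4846 bp, was at chromosome 18, 31029727 to 31036813, which was also the widest region (7087 bp). NR2F2, TEAD1, SREBP1 and 1 of 4 YY1 peaks sat within 200 bp of each other near one edge, and the single RXRG peak lay 1356 bp on the other side of the centre. The narrowest region, chromosome 9, 7475791 to 7476031, measured 241 bp, and each of its 5 factor peaks was wider than it. The most factor peaks, 16, were found in 2 regions. The region at chromosome 14, 94417638 to 94421656, held 4 NR2F2, 3 YY1, 4 RXRG, 4 TEAD1 and 1 SREBP1 peaks. The region at chromosome 18, 38069921 to 38073186, held 4, 4, 4, 3 and 1, in groups along its 3266 bp, and SREBP1 lay in the group at one end.

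**Figure D2:**
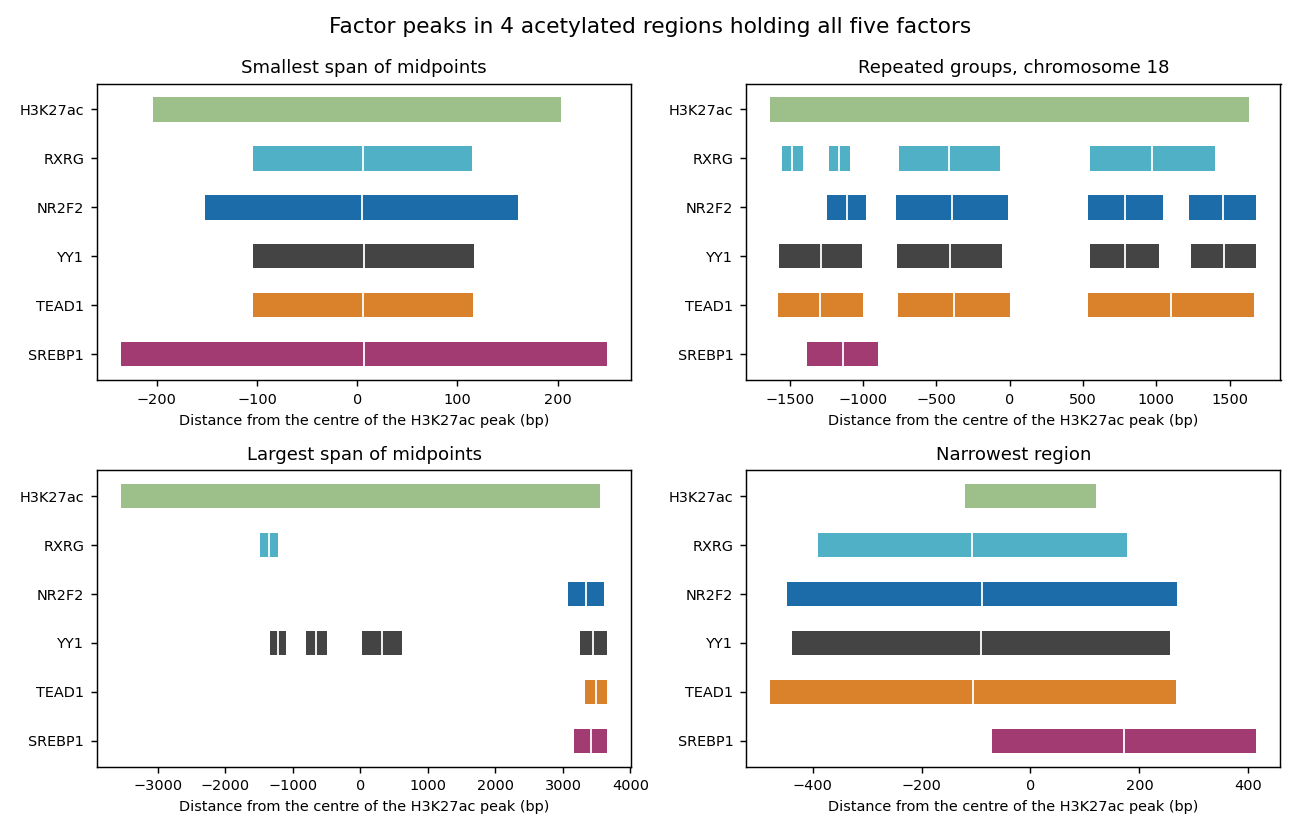
Positions of factor peaks (bars, with the midpoint as a white line) against the centre of the H3K27ac peak (bp, horizontal axis) in 4 regions named in the text. The factors coincide in the first map, form repeated groups in the second, and in the third RXRG stands 4846 bp from the farthest of the other midpoints.

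Spacing was then measured pair by pair, as the distance between the nearest midpoints of 2 factors in a region. NR2F2 and YY1 were the closest of the 10 pairs, at a median of 86.0 bp (80.5 to 92.5 bp), and their peaks overlapped in 99.2% of regions. YY1 and TEAD1 followed at 106.5 bp (99.5 to 111.0 bp), NR2F2 and RXRG at 112.0 bp (104.5 to 118.0 bp), and NR2F2 and TEAD1 at 115.0 bp (110.5 to 121.0 bp). The intervals of the last 3 touch or overlap, so that their order is not settled by these counts. YY1 and RXRG lay 139.5 bp apart, and RXRG and TEAD1 183.5 bp. Every distance to SREBP1 was larger, at 235.5 bp for TEAD1, 295.0 bp for YY1, 309.5 bp for NR2F2 and 405.5 bp (390.0 to 421.0 bp) for RXRG.

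Overlap of peaks did not follow the distance alone, and the wide YY1 peaks reached SREBP1 in 93.3% of regions. RXRG and SREBP1 peaks overlapped in 51.7% of the regions (49.7 to 53.7%), the lowest share of the 10 pairs. The share was 75.3% for RXRG and TEAD1, 75.4% for NR2F2 and SREBP1, 76.9% for TEAD1 and SREBP1, and 89.6% or more for the other 6 pairs.

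**Figure D3:**
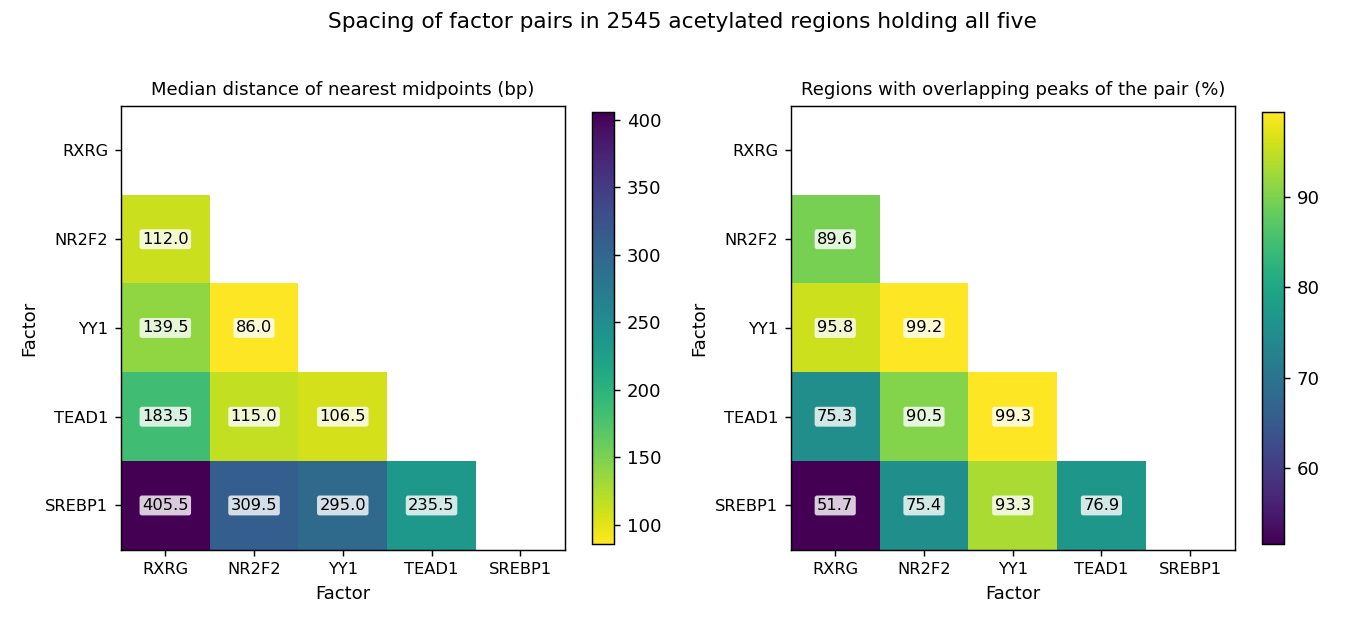
Median distance of nearest midpoints (bp, left) and share of regions with overlapping peaks (%, right) for the 10 pairs of factors in the 2545 regions. The row of SREBP1 holds the 4 largest distances, from 235.5 to 405.5 bp, and RXRG with SREBP1 has the lowest overlap, 51.7%. In other H3K27ac peaks holding RXRG and SREBP1, which are not drawn, the overlap was 46.9%.

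Spacing was set beside that in other acetylated peaks that hold both factors of a pair. At widths of 1 to 2 kb, NR2F2 and YY1 were 94.5 bp apart in regions with all 5 factors and 98.5 bp in 4699 others. NR2F2 and RXRG were 123.25 bp apart, against 107.5 bp in 3218 others. YY1 and TEAD1 were 118.0 bp apart, against 82.25 bp in 6120 others, and YY1 and SREBP1 317.5 bp, against 242.5 bp in 4382 others. RXRG and SREBP1 were 426.0 bp apart, against 448.75 bp in 1268 others. In this width range, chosen after the data were seen, 8 of the 10 pairs had the larger median distance in the regions with all 5, the exceptions being NR2F2 with YY1 and RXRG with SREBP1. At all widths NR2F2 and YY1 were 86.0 bp apart, against 75.5 bp in 11627 others, so that the direction of this pair turned with the width. RXRG and SREBP1 were 405.5 bp apart at all widths, against 411.5 bp in 2450 others, which lies within the interval of the regions with all 5.

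The order of the factors along the DNA was read in the 1659 regions with a single peak of each. In 23 of them 2 midpoints were equal, which left 1636. Direction was not read, so that an order and its reverse count as the same. YY1 stood in the middle in 37.7% of regions (35.4 to 40.1%), NR2F2 in 26.3% (24.2 to 28.6%), TEAD1 in 18.9% (17.1 to 20.9%), RXRG in 12.1% (10.6 to 13.8%) and SREBP1 in 4.89% (3.90 to 6.05%). Equal shares would be 20%. SREBP1 stood at an end in 78.5% of regions (76.4 to 80.5%) and RXRG in 54.2% (51.7 to 56.6%), where equal shares would be 40%. TEAD1 did so in 27.8%, NR2F2 in 25.7% and YY1 in 13.9%. YY1 peaks were also the widest of the 5 factors in the 2545 regions, at a median of 811 bp. The part of peak width in the order was not tested.

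SREBP1 and RXRG were the commonest pair of ends. They bounded the group in 37.1% of the 1636 regions, followed by NR2F2 with SREBP1 in 17.97%, and by TEAD1 with SREBP1 in 13.9%. The commonest of the 60 possible orders was RXRG, NR2F2, YY1, TEAD1, SREBP1, in 197 regions (12.0%), and next was RXRG, YY1, NR2F2, TEAD1, SREBP1, in 150 (9.17%). Equal shares would be 1.67%, and each of the 60 orders was seen. Equal shares take the factors as interchangeable. Both leading orders have RXRG and SREBP1 at the ends, so that their excess partly restates the 37.1% of that pair. Where SREBP1 was at an end, TEAD1 was its neighbour in 44.1% of 1284 regions, YY1 in 20.6%, NR2F2 in 18.3% and RXRG in 17.1%. RXRG was at the far end in 47.3% of these, NR2F2 in 22.9%, TEAD1 in 17.7% and YY1 in 12.1%.

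**Figure D4:**
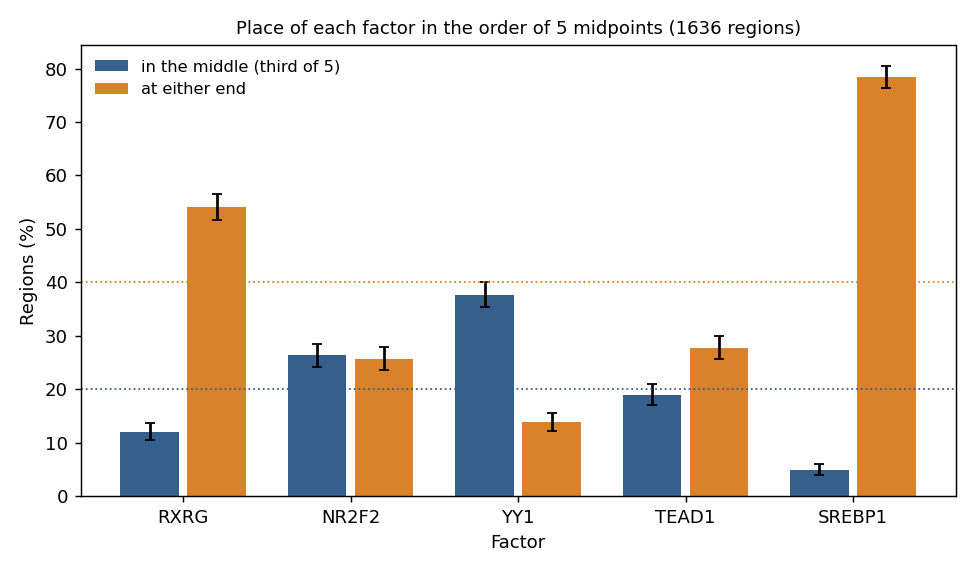
Share of 1636 regions (%, vertical axis) in which each factor is in the middle or at either end of the 5 midpoints, with exact binomial 95% intervals. Dotted lines give equal shares of 20% and 40%. YY1 has the highest bar for the middle (37.7%) and SREBP1 the highest for the ends (78.5%).

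The arrangement of the 4 S16 factors can be read without SREBP1, also in regions that lack it. With all 5 factors present, YY1 was 1 of the 2 inner factors in 70.3% of 1677 regions, NR2F2 in 59.7%, TEAD1 in 37.5% and RXRG in 32.5%. In 2028 regions missing only SREBP1, the shares were 63.0% for YY1, 53.6% for NR2F2, 41.1% for TEAD1 and 42.3% for RXRG. RXRG and TEAD1 bounded the 4 in 37.3% of regions with all 5 and in 27.5% of those without SREBP1, the commonest pair of ends in both. At widths of 1 to 2 kb these were 38.4% and 31.2%. The order RXRG, NR2F2, YY1, TEAD1 led in both classes, with 21.2% and 15.5%, where equal shares of 12 orders would be 8.33%. It has the commonest pair of ends, so that its excess partly restates the share of that pair. In these 1677 and 2028 ordered regions the 4 midpoints spanned a median of 244.0 bp with SREBP1 present and 148.25 bp without it. At 1 to 2 kb the medians were 274.5 and 238.25 bp. Over all 2545 regions with all 5 and all 2990 missing SREBP1, the median smallest spans were 274.5 and 175.5 bp. At 1 to 2 kb they were 287.75 and 249.5 bp. The 4 factors shared a base in 70.3% of all 2545 regions, against 82.3% of all 2990 missing SREBP1. At 1 to 2 kb this was so in 71.3% against 78.2%.

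The midpoint of SREBP1 stood apart from the S16 midpoints in most regions, although the peaks often overlapped. Over the 2545 regions, SREBP1 peaks overlapped those of YY1 in 93.3%, TEAD1 in 76.9%, NR2F2 in 75.4% and RXRG in 51.7%. The SREBP1 midpoint lay outside the stretch from the first to the last S16 midpoint in 1300 of 1659 regions (78.4%). Equal shares would be 40%. Where outside, it lay a median of 216.25 bp beyond the stretch. The median distance of SREBP1 from the middle of the other 4 midpoints was 293.875 bp, against 145.0 bp for RXRG, 102.125 bp for TEAD1, 85.0 bp for NR2F2 and 66.875 bp for YY1. The distance of SREBP1 was 249.0 bp in the narrowest of 4 width classes and 327.5 bp in the widest. In the other direction, the share with SREBP1 outside was 82.6% in the narrowest class and 64.5% in the widest.

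The same held against the acetylated peak itself. The nearest YY1 midpoint was a median of 106.5 bp from its centre, NR2F2 151.5 bp, RXRG 172.5 bp, TEAD1 195.0 bp and SREBP1 392.5 bp. The inner 50% of the peak held the YY1 midpoint in 91.1% of regions, NR2F2 in 84.4%, RXRG in 80.6%, TEAD1 in 75.5% and SREBP1 in 43.6%. The part of the factor peaks' width in these places was not tested. SREBP1 had its nearest midpoint outside the acetylated peak in 426 of 2545 regions, TEAD1 in 51, RXRG in 12, NR2F2 in 9 and YY1 in 9. The nerve peaks thus lay farther towards the flanks of the acetylation mapped in the cell line than the S16 factors did.

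Along the chromosomes some of the regions were grouped. Another region with all 5 factors lay within 50 kb of 654 of the 2545 (25.7%), within 10 kb of 129 (5.07%) and within 100 kb of 43.1%, and the median gap was 126295 bp. Regions missing SREBP1 alone, a slightly larger class, had another of their own class within 50 kb in 25.2% of cases, within 10 kb in 12.2% and within 100 kb in 34.2%, with a median gap of 219308 bp. Close pairs were thus fewer among the regions with all 5, and neighbours at middle range more frequent. In regions missing RXRG alone, a smaller class, the share within 50 kb was 18.8%. The next H3K27ac peak on either side of a region with all 5 was itself such a region in 5.27% of 5087 cases. For neighbours of regions missing only SREBP1 this was 3.15%, for those missing only TEAD1 4.10%, and for any H3K27ac peak 2.56%. The regions with all 5 had a median of 8 other acetylated peaks within 50 kb. The median was also 8 around regions missing only RXRG or only NR2F2, 6 around those missing TEAD1, 5 around those missing SREBP1 and 7 around any H3K27ac peak.

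**Figure D5:**
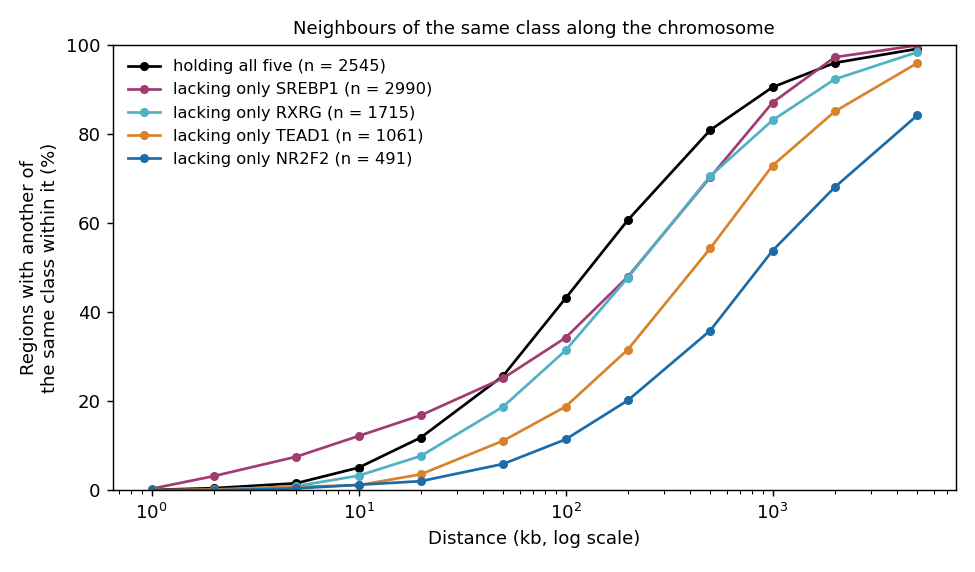
Share of regions (%, vertical axis) that have another region of the same class within a given distance (kb, log scale, horizontal axis), for regions with all 5 factors and for those that miss SREBP1, RXRG, TEAD1 or NR2F2. At 10 kb the regions with all 5 stand at 5.07% and those missing SREBP1 at 12.2%, and at 100 kb at 43.1% and 34.2%. A larger class has nearer neighbours by its number alone.

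Joined across gaps of up to 50 kb, the regions formed 275 clusters and left 1891 alone. Of the clusters, 211 held 2 regions, 45 held 3, 12 held 4 and 7 held 5 or more. The cluster with the most was at chromosome 1, 187765890 to 187980116. It held 12 regions with 80 factor peaks in 214 kb, among 38 H3K27ac peaks. In 11 of the 12 at least 1 base lay under all 5 lists. The median span of midpoints there was 176.25 bp, against 514.5 bp over all regions. A cluster of 9 regions, among 28 H3K27ac peaks, lay at chromosome 14, 46699349 to 46848733. It had 82 factor peaks, and 4 of the 9 regions had a base under all 5 lists. One of its regions, at 46788851 to 46792292, was among the 5 with the most factor peaks, 15. The cluster at chromosome 7, 141678556 to 141858625, held 7 regions with 37 factor peaks, among 24 H3K27ac peaks. Of the 7, 3 had a base under all 5 lists. The median spans in the clusters on chromosomes 14 and 7 were 500.5 and 411.5 bp.

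Chromosomes differed in how many of their acetylated peaks held all 5 factors. The share was 3.69% (3.24 to 4.18%) on chromosome 10, 3.38% on chromosome 19 and 3.23% on chromosome 1, against 1.39% on chromosome 20 and 0.798% (0.473 to 1.26%) on the X chromosome, the lowest of the 21. The X chromosome also had the highest share of acetylated peaks with any factor, 65.6%, against 48.1 to 52.5% on the autosomes. NR2F2 was present in 41.8% of its acetylated peaks, RXRG in 27.4%, YY1 in 31.8%, TEAD1 in 16.6% and SREBP1 in 13.1%.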

How the data were processed

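Of the 7 samples, 6 have a peak list. The deposited files give chromosome, start and end in bp; the SREBP1 list adds a name, a strand and a score, but that deposited score is constant and was not used. Per the submitters' processing notes, reads were handled with Bowtie2, MACS2, deepTools, bedtools and bcl2fastq (2.20.0.422) on build rn5. Roles, thresholds, controls and pooling are not given in the sources used. No list of the input was analysed here, and no CUT&RUN control is among the samples. Mitochondrial peaks were left out. Coordinates are rn5, counting from 1. As the gene table at hand has another build, regions are named by position and no sequence was used.

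The members and comparisons were chosen with earlier results of these data known. Named regions follow a rule: the 5 with the most factor peaks, the 3 at each end of span and of width, and the 3 largest clusters, of which the text gives the leading ones. Intervals are exact binomial, or order statistics for medians. The scripts were tested on simulated data and their overlaps checked against bedtools. Python 3.11.15, NumPy 2.4.6, pandas 2.3.3, SciPy 1.17.1 and Matplotlib 3.10.9 were used.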

Additional observations from a re-analysis of the deposited data

How the results depend on the processing

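Of 100 recomputed values for 25 results, 49 stayed within the counting interval of the reported value (or, for the number of regions, within 1.5 times). The 49 include the values for placed chromosomes only, none of which changed. Requiring 50% of the shorter peak changed the share with a base under all 5 lists to 42.6%, the span to 476.75 bp, the share with another region within 50 kb to 23.4% and the width to 1410.5 bp. Requiring the factor's midpoint inside the H3K27ac peak gave 42.4%, 477 bp, 23.4% and 1412.5 bp. Keeping the wider NR2F2, YY1, RXRG and TEAD1 peaks left 1248 regions, with 40.1%, 551.5 bp, 15.3% and 1407 bp. The lower-numbered SREBP1 names gave 22.96% within 50 kb. H3K27ac peaks of 1 to 2 kb, chosen after the data were seen, left 1590 regions, with a span of 530.5 bp and 16.7% within 50 kb. Fewer regions have fewer neighbours by construction; the cause of the other shifts was not tested. Joining H3K27ac peaks within 1 kb (2556 regions) moved none of these 5 results. Keeping placed chromosomes only (2545) could not move them, as all the regions already lie there. With the wider peaks the share with TEAD1 of regions holding the other 4 was 56.2%, close to RXRG (56.9%) and SREBP1 (55.1%), while YY1 (96.6%) and NR2F2 (78.0%) still led. YY1 stayed most frequent in the middle when the tightest (34.6%) or widest (36.8%) peaks stood for each factor in all regions. Read depth is unknown, and its effect was not tested. No paired analysis was possible because no group has a second sample.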

Other observations

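The names of the SREBP1 peaks end in a number whose meaning the sources used here do not state. The numbers were divided, per chromosome, into 4 ranges of equal length. Of the 2616 SREBP1 peaks in regions with all 5 factors, 74.5% fell in the lowest range. The share was 66.3% of 3333 in H3K27ac peaks with 3 of the 4 S16 factors. It was 48.6% in all H3K27ac peaks without all 5, which include the former, and 15.2% of 14332 outside H3K27ac. Over all 29435 SREBP1 peaks it was 34.6%. In the highest range the shares were 3.25%, 5.88%, 11.2% and 29.1%, in the same order, and 19.2% over all SREBP1 peaks. Within the regions with a single peak of each factor, SREBP1 lay a median of 262.25 bp (250.25 to 283.25 bp) from the middle of the S16 midpoints in the lowest range, 387.625 bp (355.5 to 426.25 bp) in the next, 424.0 bp (318.75 to 510.5 bp) in the third and 338.25 bp (223.0 to 422.5 bp) in the highest. The interval of the highest range, with 51 regions, overlaps those of the other 3.

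The 7 acetylated peaks that held NR2F2, RXRG, TEAD1 and SREBP1 without YY1 lay on chromosomes 2, 9, 11, 12, 19 and X, chromosome 2 having 2 of them. Their widths ran from 380 to 2337 bp. No YY1 peak came closer than 1502 bp to any of them.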
